A study of Mus musculus with 6 samples.

Results

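The genes described here are 10 immediate early genes, *Fos*, *Fosb*, *Jun*, *Junb*, *Egr1*, *Ier2*, *Atf3*, *Btg2*, *Dusp1* and *Nr4a1*. They were chosen by name, with earlier results of these data known. They were found through their Ensembl identifiers, and all 10 were present among the 28777 genes listed in the deposited counts. All 10 also passed the filter of more than 5 reads over the libraries, which left 28157 genes to be tested. Whether they differed between the groups, and how far they varied between libraries of 1 group, was asked as a check of handling.

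Immediate early genes are a class of genes that cells transcribe within minutes of a stimulus, without first making new protein. Growth factors, stretch, depolarisation and tissue injury act through kinases of the MAPK family and through the transcription factors SRF and CREB, which are already present on the promoters of these genes. Many of the messages carry AU-rich sequence in the 3′ UTR and decay quickly, so the response is short. In tissue studies the same genes are watched as a sign of handling, since cutting and warming a tissue can switch them on before the RNA is fixed.

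The libraries were bulk RNA-Seq of the cardiac outflow tract (OFT) of mouse embryos at E13.5, in which the OFT was cut away below the conal cushions and frozen until the embryo had been genotyped. The 3 libraries labelled mutant were from Notch1+/-; Nos3-/- embryos and the 3 labelled wildtype from wildtype embryos, in a C57/BL6J background, and each library pooled 3 OFTs. The alleles are carried by the whole embryo and not by a chosen cell type, and the labels name no treatment in either group. The pools are separate samples of embryos, and p-values measure the spread between them. The paper describes the wildtype embryos as littermates of the mutants. Which pools share litters is not given, so the main test is unpaired.

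Depth was between 34729103 and 44387490 counts per library. Levels are given as CPM, counts scaled to the same library size. *Nos3*, the endothelial nitric oxide synthase, was lower under the mutant label (21.5 ± 0.949 against 42.4 ± 9.18 CPM, SD, n = 3 each). *Notch1* was higher under it (152 ± 10.9 against 82.0 ± 7.09 CPM, SD, n = 3 each), although that label names the loss of 1 allele, so the groups are named by their labels throughout. Of these, *Notch1* was called (edgeR, Benjamini-Hochberg adjusted p = 0.0313) and *Nos3* was not (0.128). For wildtype 2 and wildtype 3 the number in the sample title and that in its description are exchanged. The titles are followed for the names of these libraries, and their group is not affected.

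*Fos* (ENSMUSG00000021250), the AP-1 subunit that pairs with Jun proteins, lies on chromosome 12 of mm10 from 85473890 to 85477273. *Nr4a1* (ENSMUSG00000023034), an orphan nuclear receptor, lies on chromosome 15 from 101254269 to 101274795. *Dusp1* (ENSMUSG00000024190), a phosphatase that switches MAP kinases off, lies on chromosome 17 from 26505590 to 26562128. The 250 bases before the RefSeq start of these 3 genes are shown, because *Fos* and *Nr4a1* are the members whose groups did not overlap and *Dusp1* is the feedback member of the same class. The sequences are those of RefSeq, GRCm38.p6, which had 8 of the 10 members, all but *Egr1* and *Ier2*. Capitals mark TGACG on either strand (the core of the CREB site), its palindrome TGACGTCA, and TATAAA.
Fos promoter, chr12:85473640-85473889, plus strand: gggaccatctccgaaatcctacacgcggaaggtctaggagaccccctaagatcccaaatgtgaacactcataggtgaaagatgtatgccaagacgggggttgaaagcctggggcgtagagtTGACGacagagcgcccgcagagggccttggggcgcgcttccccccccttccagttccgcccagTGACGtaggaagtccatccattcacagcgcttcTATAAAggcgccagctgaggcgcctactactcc
Nr4a1 promoter, chr15:101266596-101266845, plus strand: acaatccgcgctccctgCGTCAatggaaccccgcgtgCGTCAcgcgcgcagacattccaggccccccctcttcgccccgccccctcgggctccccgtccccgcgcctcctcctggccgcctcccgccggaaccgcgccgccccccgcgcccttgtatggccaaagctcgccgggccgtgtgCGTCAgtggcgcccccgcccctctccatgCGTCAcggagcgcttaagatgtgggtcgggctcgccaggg
Dusp1 promoter, chr17:26508473-26508722, minus strand: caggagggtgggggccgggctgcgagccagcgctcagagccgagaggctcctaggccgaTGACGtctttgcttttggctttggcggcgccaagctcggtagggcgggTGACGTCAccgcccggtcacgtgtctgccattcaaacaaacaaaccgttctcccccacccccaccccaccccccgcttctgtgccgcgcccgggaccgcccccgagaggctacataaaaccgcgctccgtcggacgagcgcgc

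TGACG was found on either strand in 7 of the 8 promoters, all but that of *Jun*, against 17.8% of 32851 promoters of the same length in that table. *Nr4a1* had 4 matches, beginning 233, 213, 69 and 40 bases before the start. *Fos* had 2, at 129 and 66 bases, with TATAAA at 33 bases. *Dusp1* had 3, of which those at 143 and 140 bases are the 2 strands of 1 palindrome and overlap. The palindrome TGACGTCA was found in 2 of the 8 (*Btg2* and *Dusp1*) against 1.55% of all promoters, and TATAAA in 1 of 8 (*Fos*) against 12.4%. A strict CArG box (CC, then only A or T, then GG), the sequence bound by SRF, was in 0 of the 8 windows against 1.47% of all promoters. Looser forms of the box and sites further upstream were not searched, and *Egr1* and *Ier2* had no window. These are matches of letters in a short window, and bear neither on binding nor on the groups.

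In the 3′ UTR the pentamer ATTTA, the core of AU-rich elements, was found in 9 of the 10 members, all but *Ier2*, against 64.1% of 16884 genes. The median 3′ UTR was 1001 bases in the members and 921 bases in all genes. The nonamer TTATTTATT, which marks strong AU-rich elements, was in 2 of 10 members against 7.20% of genes. *Fos* held 1 such site and *Dusp1* 2. The site of *Fos* and the first of *Dusp1* are shown, from the GENCODE transcripts, with the nonamer in capitals.
Fos 3′ UTR site: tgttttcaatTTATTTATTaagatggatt
Dusp1 3′ UTR site: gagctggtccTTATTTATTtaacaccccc

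No member was called between the groups. Counts were normalised by TMM (a scaling that sets the bulk of genes equal between libraries), values are CPM, and a gene counted as called where the Benjamini-Hochberg adjusted p of edgeR's quasi-likelihood F-test was 0.05 or less. Adjusted p-values below are those of this edgeR test, over all genes, unless another tool is named. The count was 0 of 10 members, and 0.0213% of all genes tested were called. At an unadjusted p under 0.05 there were 3 of 10 (*Fos*, *Nr4a1* and *Egr1*), each higher under the mutant label, where 8.23% of all genes tested were past that limit and higher. DESeq2's Wald test called 1 of 10, *Nr4a1*, where 2.31% of the genes it could adjust were called and higher, and limma-voom called 0 of 10, with 0.0178% of all genes called. In bulk tissue, fewer cells of a type and less RNA per cell cannot be told apart.

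Taken as a list, 8 of the 10 members had a log2 fold change above 0, as did 51.2% of all genes tested. The median log2 fold change of the members was 0.19, against 0.011 over all genes tested and -0.030 over the 16655 genes whose mean reached 1 CPM. With a GC content and gene length correction the medians of the members and of all genes tested were 0.11 and 0.0088. Without wildtype 1 they were 0.31 and 0.025. Groups without overlap were seen for *Fos* and *Nr4a1*, 2 of the 10, both with the 3 mutant libraries on top, where 10.7% of all genes lie that way.

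**Figure D1:**
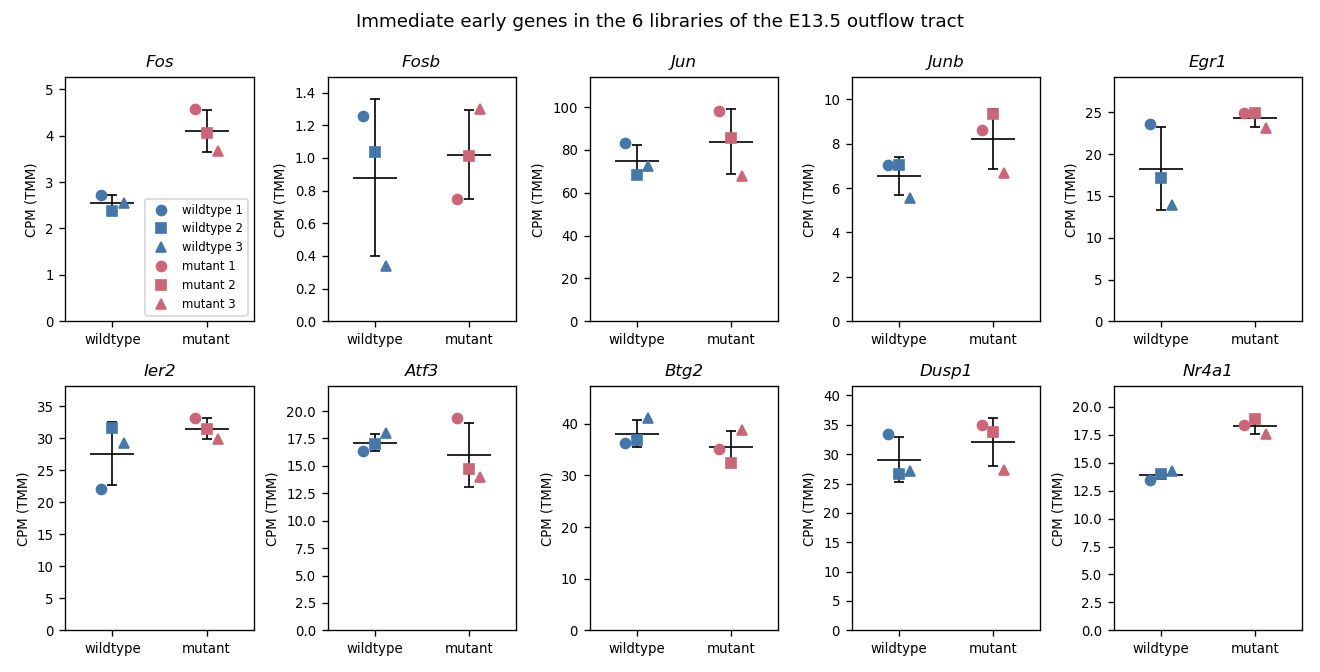
Level of each of the 10 genes in the 6 libraries, in TMM-normalised CPM on axes that start at 0, with points for libraries and bars for the mean and SD of 3. The mutant libraries of Fos lie between 3.66 and 4.57 CPM and those of wildtype between 2.38 and 2.72 CPM, and for Nr4a1 the groups are also apart.

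*Fos* had 2.72, 2.38 and 2.56 CPM in wildtype 1, 2 and 3. In mutant 1, 2 and 3 it had 4.57, 4.06 and 3.66 CPM. Every mutant library was above every wildtype library, by about 1.60-fold on average. The log2 fold change was 0.68 with a standard error of 0.19 (edgeR, unadjusted p = 0.00396 and Benjamini-Hochberg adjusted p = 0.194), the largest among the 10 members. A two-sided exact permutation test on log2(CPM + 0.5) gave p = 0.1, the smallest that 3 libraries against 3 allow. With each library left out in turn the log2 fold change stayed between 0.59 and 0.75. Its adjusted p by DESeq2's Wald test was 0.0603, and the 15 alternative settings spanned 0.0327 to 0.642. The level behind this difference was low, with 83 to 183 counts per library.

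*Nr4a1* varied least among the members. It had 13.47, 14.0 and 14.2 CPM in the wildtype libraries and 18.4, 19.0 and 17.6 CPM in the mutant libraries. The groups were again apart, by 1.32-fold, and the libraries within a group differed by little. The log2 fold change was 0.40 with a standard error of 0.11 (edgeR, unadjusted p = 0.0033 and Benjamini-Hochberg adjusted p = 0.194), and the exact permutation p was 0.1. DESeq2's Wald test called it with an adjusted p = 0.0485, and the 15 alternative settings spanned 0.0485 to 0.642.

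*Egr1* (ENSMUSG00000038418), a zinc finger factor whose gene is on chromosome 18, had 23.6, 17.2 and 13.9 CPM in wildtype 1, 2 and 3. In mutant 1, 2 and 3 it had 24.9, 24.9 and 23.1 CPM. Wildtype 1 lay above mutant 3, so the groups overlapped, while wildtype 2 and 3 were below every mutant library. The log2 fold change was 0.41 with a standard error of 0.17 (edgeR, Benjamini-Hochberg adjusted p = 0.276), and the two-sided exact permutation p was 0.2. With each library left out in turn, the log2 fold change lay between 0.25, without wildtype 3, and 0.64, without wildtype 1. With the GC content and gene length correction it was 0.26. Without wildtype 1 *Egr1* was called (edgeR adjusted p = 0.0208, where the 15 alternative settings spanned 0.0208 to 0.653). In that fit 4.15% of all genes tested were called and higher, beside 0.0213% called in either direction with all 6 libraries.

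The other subunits of AP-1 showed smaller differences. *Jun* (ENSMUSG00000052684), on chromosome 4 from 95049034 to 95052222, was the most abundant member, with 83.4, 68.3 and 72.4 CPM in the wildtype and 98.2, 85.7 and 67.8 CPM in the mutant libraries. Mutant 3 was the lowest of all 6 and mutant 1 the highest, so the groups overlapped (log2 fold change 0.17, standard error 0.14). *Junb* (ENSMUSG00000052837), on chromosome 8 from 84974484 to 84978718, had 7.04, 7.06 and 5.55 CPM in the wildtype and 8.60, 9.31 and 6.68 CPM in the mutant libraries. Its groups overlapped through mutant 3 (log2 fold change 0.32, standard error 0.17). *Fosb* (ENSMUSG00000003545), on chromosome 7 from 19302696 to 19310051, was barely counted, at 11 to 56 counts per library. It had 1.26, 1.04 and 0.339 CPM in the wildtype and 0.750, 1.01 and 1.30 CPM in the mutant libraries. Its log2 fold change of 0.20 (standard error 0.44) was within the error, and it was -0.17 without wildtype 3 and -0.014 without mutant 3.

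The antisense transcript *Junos* shares 232 exon bases with *Jun*, and *Prdx2*, on the opposite strand, shares 173 exon bases with *Junb*. Genes overlapping *Dusp1* share 11 exon bases with it. Whether the counting used the strand is not given in the sources used here, so these levels are uncertain. *Junos* was listed at 13 to 31 counts per library and *Prdx2* at 9354 to 13194.

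*Ier2* (ENSMUSG00000053560), a nuclear protein of the early response encoded on chromosome 8 from 84661331 to 84662852, had 22.0, 31.5 and 29.2 CPM in the wildtype and 33.1, 31.5 and 29.9 CPM in the mutant libraries. It was lowest in wildtype 1, the library in which *Egr1* was highest among the wildtype libraries (log2 fold change 0.19, standard error 0.13). *Dusp1* had 33.4, 26.6 and 27.2 CPM and 35.0, 33.8 and 27.3 CPM in the same order, and wildtype 1 was near mutant 1 and 2 while mutant 3 was near wildtype 2 and 3 (log2 fold change 0.14, standard error 0.13). *Atf3* (ENSMUSG00000026628), a stress factor of the ATF family encoded on chromosome 1 from 191170296 to 191218039, had 16.4, 17.0 and 18.0 CPM in the wildtype and 19.4, 14.8 and 14.0 CPM in the mutant libraries. *Btg2* (ENSMUSG00000020423), an antiproliferative gene that p53 also induces, lies on the same chromosome from 134075170 to 134079120 and had 36.2, 36.9 and 41.1 CPM and 35.1, 32.5 and 38.7 CPM. These last 2 were the members with a log2 fold change under 0 (-0.094 and -0.10, with standard errors of 0.14 and 0.10). Scaled by library size only, which moved the median of all genes to 0.11, they were 0.012 and 0.0012. For the 7 members other than *Fos*, *Nr4a1* and *Egr1*, the edgeR adjusted p (Benjamini-Hochberg) lay between 0.377 and 0.865.

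**Figure D2:**
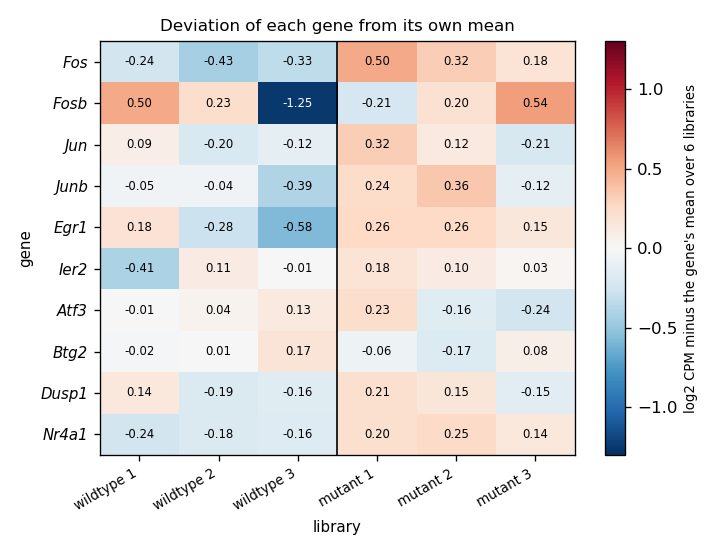
Each gene's log2 CPM in a library minus its own mean over the 6 libraries, in columns for the libraries and rows for the genes (red above, blue below the mean). Mutant 1 is highest for 6 of the 10 genes, and the largest single deviation is that of Fosb in wildtype 3.

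The deviations of the genes from their own means show how a library stood as a whole. The median deviation over the members was -0.011, -0.11 and -0.16 (log2) in wildtype 1, 2 and 3, and 0.22, 0.18 and 0.054 in mutant 1, 2 and 3. Mutant 1 was highest for 6 of the 10 members and mutant 2 for 2. Mutant 3 was nearer to the wildtype libraries, and no library was high for all 10.

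Per kb of exon, which allows genes to be compared, *Jun* was the highest member in both groups, at 23.4 ± 2.45 CPM per kb in the wildtype and 26.3 ± 4.78 in the mutant libraries (SD, n = 3 each). *Ier2* followed with 18.1 ± 3.25 and 20.7 ± 1.07, then *Btg2*, *Dusp1*, *Atf3*, *Egr1*, *Nr4a1* and *Junb*. *Fos* had 1.09 ± 0.0717 and 1.74 ± 0.195, and *Fosb*, last, 0.141 ± 0.0769 and 0.164 ± 0.0441 CPM per kb. The order was the same in both groups. In the wildtype libraries the ranges of *Ier2* and *Btg2*, of *Dusp1* and *Atf3* and of *Egr1* and *Nr4a1* overlapped, so these neighbours were not separated. In the mutant libraries the ranges of *Jun* and *Ier2*, of *Dusp1* and *Atf3* and of *Egr1* and *Nr4a1* overlapped. The mean level of *Jun* exceeded that of 90.5% of 28105 genes with a length, that of *Fos* 49.7% and that of *Fosb* 25.1%.

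**Figure D3:**
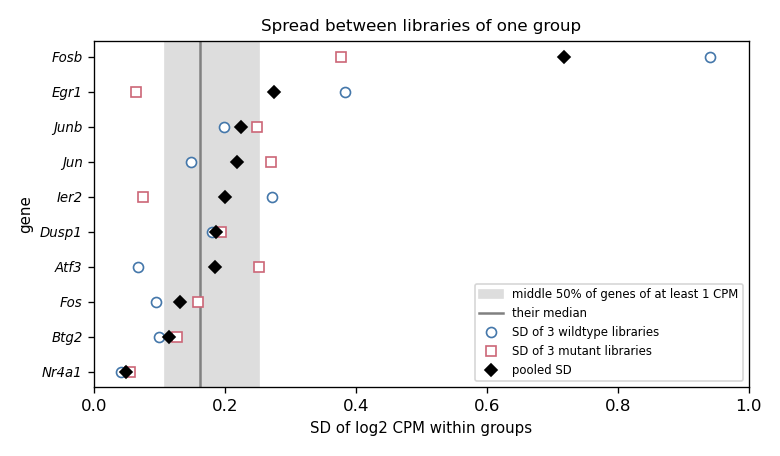
Spread between libraries of 1 group as the SD of log2 CPM on the x axis, for 3 wildtype libraries (circles), 3 mutant libraries (squares) and both pooled (diamonds), with the middle 50% (grey) and median of all genes of at least 1 CPM. The pooled values run from 0.048 for Nr4a1 to 0.717 for Fosb.

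Within groups the members varied about as much as other genes. The median pooled SD of log2 CPM over the 9 members of at least 1 CPM was 0.187, against 0.162 over the 16655 genes of at least 1 CPM, whose middle 50% lay between 0.107 and 0.251. *Nr4a1* had the smallest (0.048), smaller than all but 2.70% of those genes. *Egr1* had the largest of the 9 (0.275), larger than that of 79.0% of genes, and its spread was mostly in the wildtype libraries. *Fosb*, with few counts, had 0.717. Without wildtype 1 the median of the 9 was 0.136, and without mutant 2 it was 0.207.

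**Figure D4:**
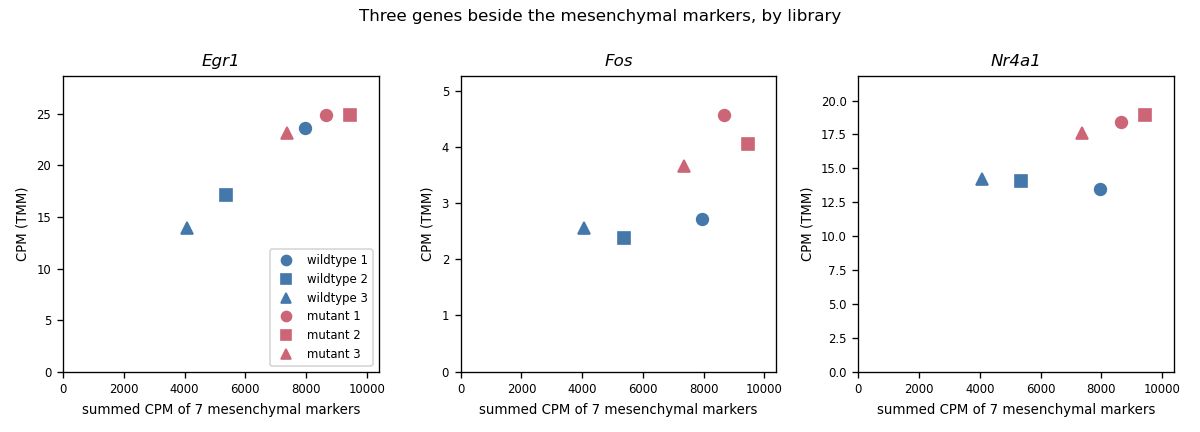
CPM of Egr1, Fos and Nr4a1 (y axes, from 0) against the summed CPM of 7 mesenchymal markers (x axes) in the 6 libraries. The libraries of Egr1 run from 13.9 CPM at a marker sum of 4071 to 24.9 CPM at 9445, and for Fos and Nr4a1 wildtype 1 stays with the other wildtype libraries.

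The OFT holds myocardium, cushion mesenchyme, endothelium and smooth muscle, and markers of all 4 were present. Markers of the mesenchyme (*Postn*, *Sox9*, *Twist1*, *Pdgfra*, *Col1a1*, *Col3a1* and *Vcan*) summed to 4071 to 7950 CPM in the wildtype and 7368 to 9445 CPM in the mutant libraries. Those of the myocardium (8 genes) summed to 16905 to 23593 and 12133 to 16304 CPM. None of these markers was at 0 in any library. The log2 fold change was above 0 for 7 of 7 mesenchymal and for 0 of 8 myocardial markers, with medians of 0.59 and -0.49. Of these markers 0 were called, though 5 of 7 and 6 of 8 had an unadjusted p under 0.05 in edgeR's quasi-likelihood test. Past that limit in either direction were 16.1% of all genes tested. The libraries, ordered by the mesenchymal sum, ran from wildtype 3 (4071 CPM of markers) and wildtype 2 (5367) through mutant 3 (7368) and wildtype 1 (7950) to mutant 1 (8658) and mutant 2 (9445). *Egr1* had that order in the first 4, and mutant 1 and 2, both at 24.9 CPM, were reversed by a difference under the rounding. For *Fos* and *Nr4a1*, wildtype 1 had more of these markers than mutant 3 and less of either gene. The other members and marker lists were not set beside this order. Blood markers summed to 4225 to 10202 CPM in the wildtype and 5108 to 5386 CPM in the mutant libraries, and wildtype 2 and 3 held 92.1 and 25.2 CPM of liver markers against 1.33 CPM in wildtype 1 and 1.03 to 4.91 CPM in the mutant libraries. The part of any of these markers, those of mesenchyme and myocardium included, in the differences of the members was not tested.

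Other genes of the same response were looked up by list, and the lists were also chosen with earlier results of these data known. Of 38 further immediate early genes, 30 had a log2 fold change above 0 and 9 an unadjusted p under 0.05 in edgeR's test, all 9 higher under the mutant label. Of all genes tested, 51.2% were above 0, and 8.23% were past that limit and higher. None was called (0 of 38 by edgeR and 0 by DESeq2), and the median log2 fold change was 0.15. The highest were *Nfkbiz*, a regulator of NF-κB that is itself induced (0.72), *Socs3*, a brake on cytokine signaling (0.49), and the kinase *Plk3* (0.45). *Nfkbiz* had 9.36, 6.38 and 4.84 CPM in the wildtype and 13.3, 11.8 and 8.96 CPM in the mutant libraries, and overlapped through wildtype 1. The lowest were *Cebpb* (-0.38), *Ccl2* (-0.19) and *Ifrd1* (-0.10). Without wildtype 1, 4 were called, all higher (*Nfkbiz*, *Bhlhe40* and the matricellular genes *Ccn1* and *Ccn2*). In that fit 4.15% of all genes tested were called and higher.

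Of 17 relatives of the members (Fos, Jun and Batf, Egr, Nr4a, Btg and Tob genes, and *Ier3*, *Ier5* and *Ier5l*), 4 had an unadjusted p under 0.05, all higher. Of all genes tested, 8.23% were past that limit and higher. Above 0 were 11 of the 17, beside 51.2% of all genes tested, and the median log2 fold change of the relatives was 0.0895. *Egr3* had 2.18, 1.28 and 1.08 CPM in the wildtype and 3.17, 3.34 and 2.71 CPM in the mutant libraries, with a log2 fold change of 1.01 with a standard error of 0.28 (edgeR, Benjamini-Hochberg adjusted p = 0.194). *Egr2* had 1.78, 0.988 and 1.20 CPM against 3.00, 1.95 and 2.84 CPM (log2 fold change 0.97, standard error 0.29). Both levels were low, with 35 to 127 counts per library for *Egr3* and 39 to 120 for *Egr2*. These 2 factors, which share the DNA-binding domain of *Egr1*, were the most different of the relatives, and for each the groups did not overlap. The AP-1 gene *Fosl2* followed (0.55), with 26.4 to 33.1 CPM in the wildtype and 38.9 to 46.9 CPM in the mutant libraries. *Batf* (-0.28), *Tob1* (-0.21) and *Btg3* (-0.15) were the lowest. Over the relatives, groups did not overlap for 3 with the mutant libraries on top and for 2 with them below (*Batf* and *Tob1*). Of all genes tested, 10.7% and 8.94% lie these ways. None of the 17 was called by edgeR, DESeq2 called 2 (*Egr3* and *Fosl2*), and without wildtype 1 edgeR called 4 (these, *Egr2* and *Nr4a2*), all higher. Called and higher were 2.31% of the genes DESeq2 could adjust, and 4.15% of all genes tested by edgeR without wildtype 1.

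**Figure D5:**
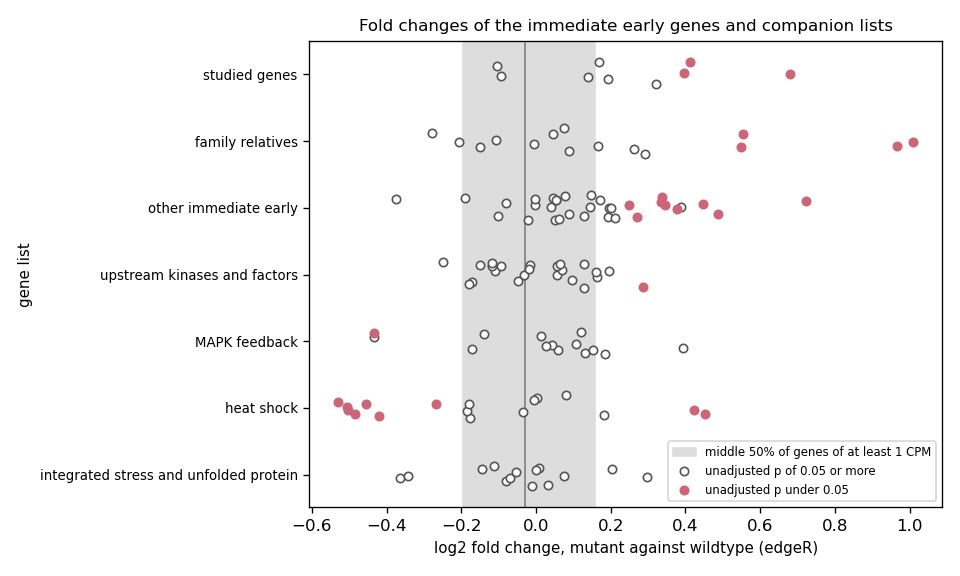
Log2 fold changes between the labels, mutant over wildtype (x axis, edgeR), for the genes of at least 1 CPM in each list (y axis, with small random offsets), filled where the unadjusted p was under 0.05. The grey band holds the middle 50% of genes of at least 1 CPM, from -0.19 to 0.16, and Fosb, under 1 CPM, is not drawn.

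The genes that act before and after the response are kinases, factors and feedback inhibitors. Of 23 upstream kinases and factors, 1 had an unadjusted p under 0.05, *Mrtfb*, an SRF cofactor (0.29), and the median log2 fold change was -0.016. *Rps6ka1* (0.20) and *Elk4* (0.16) were next, and *Rps6ka5* (-0.25), *Srf* (-0.18) and *Mapkapk2* (-0.17) the lowest. Of 14 genes of MAPK feedback, 1 was past that limit, *Dusp10*, a phosphatase of stress kinases (-0.43). *Dusp2* (-0.43) and *Dusp6* (-0.17) were also low, while *Dusp4* (0.39), *Spred2* (0.18) and *Spry4* (0.15) were the highest. Of all genes tested, 8.23% were past that limit and higher, and 7.83% lower. None of either list was called (0 by edgeR and 0 by DESeq2), and without wildtype 1 edgeR called *Mrtfb*. In that fit 4.15% of all genes tested were called and higher.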

How the data were processed

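Bulk RNA-Seq of E13.5 mouse OFTs was analysed in 6 libraries of 3 pooled OFTs each. The authors prepared stranded, ribosomal RNA depleted libraries, aligned paired-end reads to mm10 with TopHat2 2.1.0, and counted reads on exons, and the deposited values are raw counts per gene, whole numbers without normalization. Their annotation release and strand setting are not given in the sources used here, so overlapping genes are uncertain. In R 4.3.3, genes with 5 or fewer reads (620) were left out and the others fitted with TMM and edgeR 4.0.16, with Benjamini-Hochberg adjustment over 28157 genes. DESeq2 1.42.0 and limma 3.58.1 were alternatives, as were other scalings and filters, a GC content and gene length correction, replicate blocks and leaving out each library. Positions were taken from GENCODE for mm10, with 28723 of the 28777 identifiers. The members and lists were chosen with earlier results of these data known. The genes named are the 10 members, up to 3 highest and 3 lowest of each list at a mean of at least 1 CPM, and the 5 most alike. *Bhlhe40*, *Ccn1*, *Ccn2*, *Nr4a2*, *Hspb8* and *Hspe1* are outside this rule and were named after their values were seen, as calls of an alternative fit. Permutation tests used log2 of CPM plus 0.5, and spreads log2 CPM with a prior count of 2. The code was tested on simulated counts.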

Additional observations from a re-analysis of the deposited data

How the results depend on the processing

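Over the 15 planned refits of the 10 members and 1 added after seeing the data, 4 estimates turned. *Fosb* was -0.17 when wildtype 3 was left out and -0.014 when mutant 3 was, in a range of -0.17 to 0.54 with 1 library left out. *Atf3* was 0.012 and *Btg2* 0.0012 with library size only, a scaling that moved the median of all genes to 0.11. Of the member calls, *Nr4a1* passed with DESeq2's Wald test, *Egr1* without wildtype replicate 1, and 1 gene each under the replicate block on the titles and under the block with the GC content and gene length correction. The cause was not tested.

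For all genes the main count of 6 became 749 with DESeq2's Wald test, 2 at an adjusted p of at most 0.01, and between 1 and 2593 with 1 library left out, 2593 without wildtype 1. The replicate block on the numbers of the titles gave 1577 calls over all genes (5.6% in either direction, 3.18% higher). It called 1 member (*Egr1*), 3 relatives and 3 further immediate early genes, all higher, and 6 heat shock genes, all lower. With the correction as well the block gave 2256 calls over all genes (8.01% in either direction, 3.25% higher). Called there were 1 member (*Fos*), 4 relatives, 4 further immediate early genes and 2 upstream genes. So were 2 MAPK feedback genes, 6 heat shock genes and 1 of the integrated stress list. DESeq2 called 2 relatives, 3 heat shock genes and 1 member. With 1 library left out, the calls lay between 0 and 4 for the relatives, the further immediate early genes and the heat shock genes, and between 0 and 1 for the upstream genes and the members. The replicate block on the descriptions' numbers, added after seeing the data, gave 83 calls over all genes and 0 members. Samples of the same title number correlated in their deviations with r = 0.096, 0.16 and 0.42, and mutant 2 correlated better with wildtype 1 (0.28), so the numbers do not establish pairs. Low counts of *Fosb* and 3 libraries a group limit what could be detected.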

Other observations

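Of 17 heat shock genes, 2 were higher and 7 lower under the mutant label at an unadjusted p under 0.05, where 8.23% of all genes tested were past that limit and higher and 7.83% lower. Over the list the median log2 fold change was -0.18. None was called by edgeR's quasi-likelihood test (0 of 17), and DESeq2's Wald test called 3, all lower (*Hspb1*, *Hspb8* and *Hspd1*), where 1.91% of the genes it could adjust were called and lower. Without wildtype 1 edgeR called 4, also lower (*Hspb1*, *Hspb8*, *Cryab* and *Hspe1*), where 5.3% of all genes tested were called and lower. The inducible *Hspa1a* and *Hspa1b*, which are near-identical copies whose reads may be split between them, had log2 fold changes of 0.45 and 0.42. *Hspa1a* had 3.71, 5.40 and 4.50 CPM in the wildtype and 6.07, 6.24 and 6.31 CPM in the mutant libraries, and the groups did not overlap. Over the 17 genes, groups did not overlap for 3 with the mutant libraries on top and for 6 with them below. Of all genes tested, 10.7% and 8.94% lie these ways. The small heat shock proteins of muscle *Hspb1* (-0.53) and *Cryab* (-0.50) and the mitochondrial chaperone *Hspd1* (-0.51) were the lowest. *Cryab* had 262, 307 and 389 CPM in the wildtype and 220, 191 and 264 CPM in the mutant libraries. The myocardial markers were lower in the mutant libraries as well, and their part in these values was not tested.

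Of 15 genes of the integrated stress and unfolded protein response, edgeR and DESeq2 each called 0, and 0 passed an unadjusted p of 0.05 in edgeR. The extremes were *Hmox1* (-0.36), *Vldlr* (-0.34) and *Sdf2l1* (-0.14), and *Ddit4* (0.30), *Trib3* (0.20) and *Xbp1* (0.076).

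Each member was set beside the mean of the other members of at least 1 CPM, which never includes *Fosb*. Across the 6 libraries the Pearson correlation of log2 CPM with that mean was 0.90 for *Fos*. *Junb* had 0.80, *Nr4a1* 0.79, *Jun* 0.76, *Dusp1* 0.74 and *Egr1* 0.66, while *Ier2* had 0.28, *Fosb* 0.21, *Atf3* -0.050 and *Btg2* -0.77. The genes outside the 10 that were most like the mean of the 9 members of at least 1 CPM were *St6galnac6* (0.994), *Zfp335* (0.992), *Usp49* (0.992), *Inpp5b* (0.992) and *Rnf208* (0.990). Of 48 other immediate early genes and relatives of at least 1 CPM, 25% reached 0.8. Of all 16646 genes of at least 1 CPM outside the members, these 48 included, 11.7% did. These are descriptions over 6 libraries, which share the group difference. The nonamer TTATTTATT was in the 3′ UTR of 12 of the 38 further immediate early genes (31.6%).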
